A study of Mus musculus with 3 samples.

Results

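The 40 genes described here encode the enzymes and transporters of glucose breakdown, the hypoxia-inducible factors (HIF) with the proteins that control them, and well-known HIF targets. They were taken by name from the probes of a mouse 2-colour array, leaving out control spots. Of the 40 genes, 39 had a probe of that name (68 probes among 39429), and 36 passed the detection filter, which asked for a signal clearly over background on every array in Cy3, in Cy5 or in both, among 16825 genes tested. Slc2a3, Adm and Mxi1 did not pass that filter. No probe is named Pkm2, the pyruvate kinase gene that the array and RefSeq call Pkm. The study compared 2 derivatives of RM1, a mouse prostate cancer cell line. RM1-MXRA7 cells are named for Mxra7, a matrix-remodelling associated gene, and RM1-VE cells served as their counterpart. Both were grown with fetal calf serum and the selection drug G418 and were collected after 2 days, in exponential growth. No oxygen level or hypoxia treatment is given in the labels, nor are the vector, its promoter, or whether each derivative is a pool or a single clone. There were 3 arrays, each with cRNA of RM1-MXRA7 in Cy3 and of RM1-VE in Cy5. The labels call them repeats and do not say whether the RNA came from separate cultures. The p-values therefore speak only for these arrays. The limma test behind them also draws each gene's spread toward that of all genes, so genes whose arrays differ widely can pass.

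Glycolysis converts glucose to pyruvate, and lactate dehydrogenase then turns pyruvate to lactate, a route that many tumour lines favour even with oxygen present. HIF is a pair of an oxygen-sensitive alpha subunit and ARNT. With oxygen, prolyl hydroxylases of the EGLN family mark the alpha subunit for destruction through VHL. Without it, the pair binds the core letters ACGTG or GCGTG near its targets, among which are most glycolytic genes and genes of mitophagy and chromatin.

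The values are log2 ratios of RM1-MXRA7 over RM1-VE, given as mean ± SD over the 3 arrays, with adjusted p-values from limma over all genes tested. A gene's value is that of its brightest kept probe. On every array the log ratios drifted with position: medians of blocks of 19 rows ran from -0.20 to 0.40 on array 2 and over similar spans on the others. A smooth surface was fitted over the rows and columns, alone and times log2 intensity. It held 25.5% to 34.3% of the variance of the log ratios. Each result is therefore given before this surface was removed and with it removed, and a gene is said to have risen or fallen only where it passed an adjusted p of 0.05 in the same direction in both fits. All 3 arrays had the same dye orientation, so a dye effect and a difference between the lines cannot be told apart. Mxra7 itself does not check the labels: its ratio was 0.31 ± 0.14 before and -0.011 ± 0.051 with the surface removed. Of the epithelial markers described here, Krt8, Krt18 and Krt14 were detected, while Krt5, Epcam and Cdh1 were not. Detection was seen for 4 of 5 fibroblast, 3 of 4 endothelial and 3 of 6 leukocyte markers. The 3 detected endothelial markers, Pecam1, Kdr and Cdh5, were below 0 on all arrays before surface removal, as 36.2% of all genes were. With the surface removed Pecam1 (-0.038) and Kdr (-0.053) were mixed in sign and did not pass. Cdh5, the endothelial cadherin, was lower in both limma fits, as 10.7% of all genes were. It stood at -0.87 ± 0.28 and -0.74 ± 0.31 (limma adjusted p = 0.000699 with the surface removed). The part of these markers in the results was not tested. In such bulk RNA, fewer cells of a type and less RNA per cell cannot be told apart.

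In RM1-MXRA7 cells 9 of the listed genes were higher in both fits and 1 was lower. Among the risers 7 belong to the HIF system or its targets: Hif1a, Egln1, Bnip3, Bhlhe40, Ndrg1, Ankrd37 and Kdm3a. Of these, Egln1 passed the detection filter only through RM1-MXRA7, the line in which it read higher. The other risers were the glycolytic enzyme genes Tpi1 and Pfkl, and the gene that fell was Pfkfb4. The 9 risers make up 25% of the 36 genes tested, where 10.1% of all genes rose in both fits, and the 1 gene that fell makes up 2.78%, where 10.7% of all genes fell. Over the 15 HIF genes and targets tested, 7 rose in both fits (46.7%, all genes 10.1%), and 10 were called higher before surface removal (all genes, 23.9%). Over the 21 glycolysis genes, 2 rose (9.52%, near the 10.1% of all genes) and 1 fell (4.76%, all genes 10.7%). The median ratio of the 36 genes was 0.074 before and 0.072 with the surface removed, against -0.015 and 0.0086 over all genes tested.

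**Figure D1:**
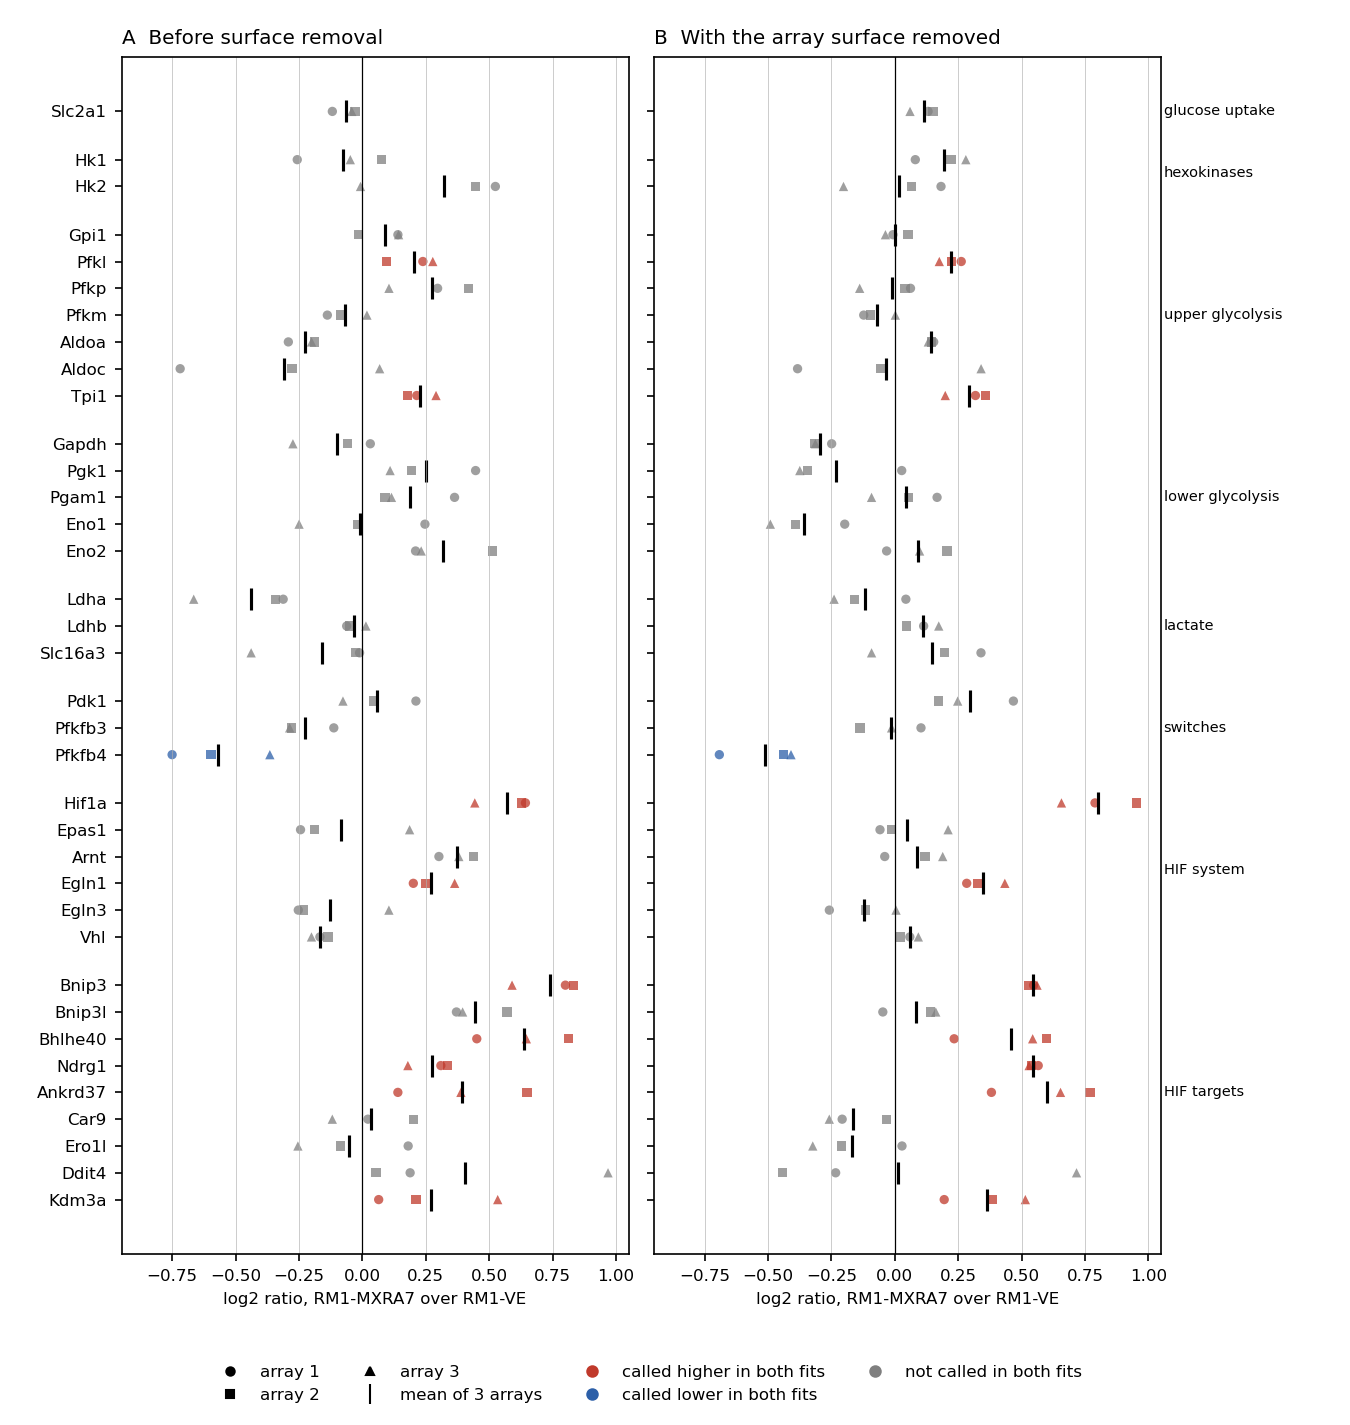
Log2 ratio of RM1-MXRA7 over RM1-VE for each of the 36 tested genes, by role, before (A) and with the array surface removed (B); points are the 3 arrays and the bar is their mean. The HIF targets hold 5 of the 9 genes called higher in both fits, and the 1 gene called lower is Pfkfb4.

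Removing the surface changed many of these calls. Before surface removal 16 were called higher (all genes, 23.9%) and 5 lower (23.5%). After removal 11 were called higher (16%) and 3 lower (15.3%). There were 11 genes called only before removal and 4 only with it, and 0 were called in opposite directions. The median absolute shift between the fits was 0.21 for the listed genes and 0.157 for all genes. Agilent's own processed signals, which the scanner software detrends, gave 9 higher (11.5%) and 1 lower (12.9%), and 8 of the 9 risers and the faller passed there too, against 7.11% and 8.42% of all genes. Counted by sign alone, 16 genes were above 0 on all 3 arrays before surface removal (all genes, 32.4%) and 7 below 0 (36.2%). After removal these counts were 15 (31.5%) and 4 (29.4%).

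**Figure D2:**
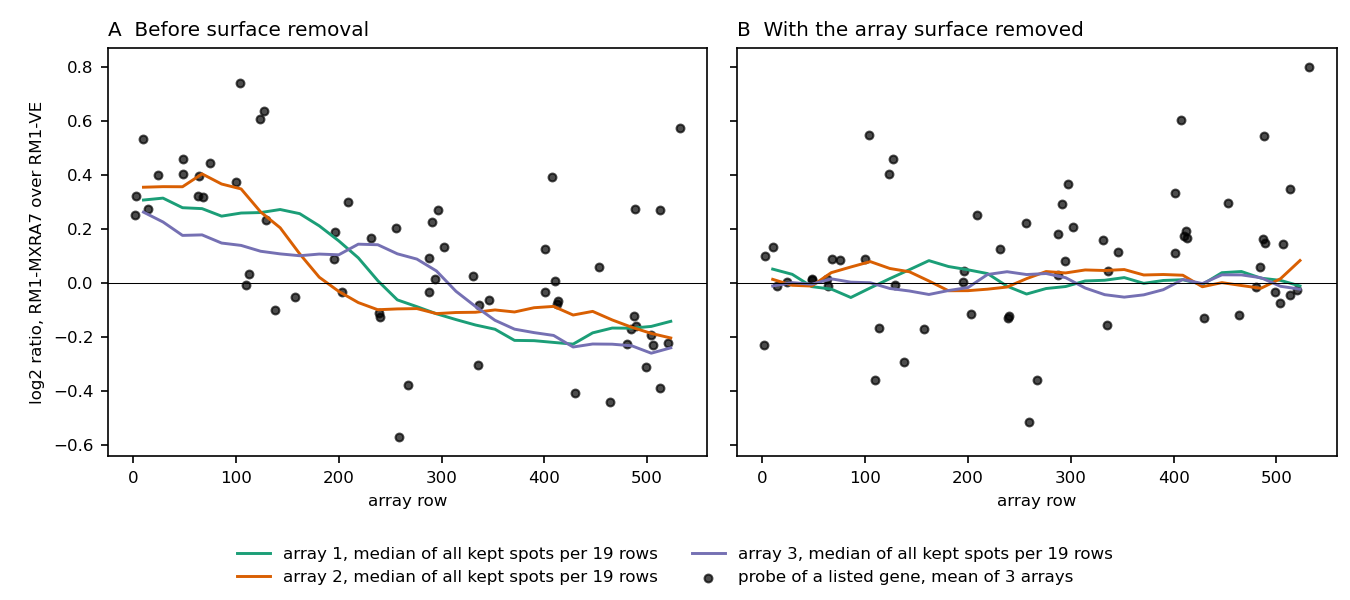
Mean log2 ratio of each kept probe of a listed gene (dots) against its row on the array, with the median of all kept spots per 19 rows as a line for each array, before (A) and with the surface removed (B). The line of array 2 runs from -0.20 to 0.40 in A and from -0.028 to 0.083 in B; the dot at the last row, 532, is a Hif1a probe.

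Among the genes of oxygen sensing, Hif1a, which encodes the oxygen-sensitive alpha subunit, had ratios of 0.64, 0.63 and 0.44 on arrays 1, 2 and 3 before surface removal, and 0.79, 0.95 and 0.66 with it. All 3 arrays were clearly above 0 in both fits. The means were 0.57 ± 0.11 (limma adjusted p = 3.92e-05) and 0.80 ± 0.15 (limma adjusted p = 4.25e-05), a rise of 1.49-fold and 1.74-fold. This rests on 1 of 2 Hif1a probes. The brighter one lies in row 532, the last row of the array. The dimmer one, in row 288, read -0.032 ± 0.085 and 0.030 ± 0.025. Its mean log2 intensity was 7.06, against 11.19 for the brighter one and 6.24 to 6.42 for the 3 listed genes below the filter. Signal this low may limit what its flat reading can show. Still, the dimmer probe was well above background in both lines on all 3 arrays, and it did not rise. Why the 2 probes differ was not tested. The array files place the brighter probe at chr12:75047269-75047329 and the dimmer at chr12:75033965-75034024 on mm9, both on the plus strand. Their first 30 of 60 bases are shown because the probes gave different answers for 1 gene.
Hif1a, row 532: ttttttggcctatggaattgttaagcctgg
Hif1a, row 288: cctaatctgttactacttgtgtgtaattgt

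Egln1, the main prolyl hydroxylase acting on HIF alpha and itself a HIF target, read 0.20, 0.25 and 0.36 on the 3 arrays, and 0.28, 0.33 and 0.43 with the surface removed. Every array was above 0, and the means were 0.27 ± 0.084 (limma adjusted p = 0.0091) and 0.35 ± 0.077 (limma adjusted p = 0.00252). The probe was dim, with a mean log2 intensity of 6.85, and clearly over background in RM1-VE on 2 of 3 arrays. It passed the filter only through RM1-MXRA7, the line in which it read higher, so its call is weak support for a rise. Its ratio from the processed signals of Agilent was 0.76. Egln3, another hydroxylase, did not pass in either fit, at -0.13 and -0.12. Vhl, the recognition subunit of the ligase, stood at -0.17 ± 0.032 before removal (limma adjusted p = 0.076) and 0.059 with it. Arnt, the constant partner subunit, was called before removal, at 0.37 ± 0.068 (limma adjusted p = 0.00104), and not with it, at 0.089 ± 0.12 (limma adjusted p = 0.314).

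Epas1 encodes HIF-2 alpha, the second oxygen-sensitive subunit. Its brightest probe did not pass, at -0.082 and 0.046. A dimmer Epas1 probe in row 267 read -0.49, -0.47 and -0.16 before removal and -0.46, -0.34 and -0.27 with it, below 0 on every array. Tested over all kept probes, it was lower in both limma fits, at -0.38 ± 0.19 (adjusted p = 0.0016) and -0.36 ± 0.10 (adjusted p = 0.00242), as 10.1% of all kept probes were. The last probe, in row 520, was called lower before removal at -0.22 (limma adjusted p = 0.0295) and stood at -0.026 with it. All 3 probes were thus below 0 before removal, and their average was called lower there, at -0.23 (limma adjusted p = 0.0339).

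Of the 9 HIF targets tested, 5 rose in both fits (55.6%, all genes 10.1%). The median ratio of all 9 was 0.39 before and 0.37 with the surface removed, against -0.015 and 0.0086 over all genes tested. Bnip3, a receptor that sends mitochondria to autophagy, read 0.80, 0.83 and 0.59 on the 3 arrays, and 0.55, 0.53 and 0.56 with the surface removed. The arrays lay close together once the surface was gone, with means of 0.74 ± 0.13 (limma adjusted p = 3.71e-06) and 0.55 ± 0.016 (limma adjusted p = 0.000146), or 1.67-fold and 1.46-fold. The 2 dimmer Bnip3 probes gave smaller values. They read -0.12 and 0.13 before removal, and 0.16 ± 0.090 and 0.21 ± 0.063 with it, so that all 3 probes were above 0 only with the surface removed. Over the kept probes the one in row 302 was called higher with the surface removed alone (limma adjusted p = 0.0247), and the one in row 487 in neither fit. The Bnip3 call in both fits thus rests on its brightest probe. Averaging the 3 probes lowered the Bnip3 ratio before removal to 0.25. The probes lie in rows 104, 487 and 302, and the array files place them on the minus strand of chromosome 7 of mm9, from 146082760, 146082640 and 146082536. Their first 30 bases are shown since the 3 give different sizes for the same gene.
Bnip3, row 104: ccattaatcaggatccaaagctgcttaaat
Bnip3, row 487: ctgtcccacacttaactcaggtgtgctaaa
Bnip3, row 302: ggagcaagatcctacaggatgtaatagtca

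Bnip3l, the close relative of Bnip3, had 4 kept probes. Its brightest, in row 75, was called before removal, at 0.45 ± 0.11 (limma adjusted p = 0.000327), and not with it, at 0.085 ± 0.11 (limma adjusted p = 0.337). Probes in rows 123 and 209 were called in both fits over the kept probes, at 0.61 and 0.40 for the first and 0.30 and 0.25 for the second, where 9.91% of all kept probes were. The fourth, in row 129, read 0.23 and -0.0060. By the brightest-probe rule Bnip3l is therefore not counted among the risers.

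Bhlhe40, a transcriptional repressor tied to the circadian clock and to hypoxia, read 0.45, 0.81 and 0.65 on the 3 arrays, and 0.23, 0.60 and 0.54 with the surface removed. Array 1 was lowest both times, and the means were 0.64 ± 0.18 (limma adjusted p = 2.67e-05) and 0.46 ± 0.20 (limma adjusted p = 0.0022). Ankrd37, a small ankyrin-repeat protein, read 0.14, 0.65 and 0.39, and 0.38, 0.77 and 0.65 with the surface removed. Here too array 1 was lowest, and the means were 0.39 ± 0.25 (limma adjusted p = 0.00263) and 0.60 ± 0.20 (limma adjusted p = 0.000508).

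Ndrg1, a growth-restraining protein induced by many stresses, was 0.31, 0.34 and 0.18 before removal, and 0.57, 0.54 and 0.53 with it. The arrays drew together with the surface removed, and the means were 0.27 ± 0.084 (limma adjusted p = 0.00839) and 0.54 ± 0.019 (limma adjusted p = 0.000149), so that the size of the rise doubled on the log2 scale between fits. Kdm3a, a histone H3K9 demethylase, was 0.064, 0.21 and 0.53, and 0.19, 0.39 and 0.51 with the surface removed. Array 3 was highest in both fits, with means of 0.27 ± 0.24 (limma adjusted p = 0.0216) and 0.37 ± 0.16 (limma adjusted p = 0.00455). Without array 2, Hif1a, Bnip3 and Bhlhe40 were the 3 genes that still rose in both fits, and Egln1, Ndrg1, Ankrd37, Kdm3a, Tpi1 and Pfkl did not. Ndrg1 also lost its call without array 1, at 0.26 before removal (limma adjusted p = 0.0507), and Kdm3a without array 3, at 0.14 (limma adjusted p = 0.208).

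The other 4 HIF targets tested did not pass in both fits. Ddit4, an inhibitor of mTORC1 signalling, read 0.19 and 0.054 on arrays 1 and 2 and 0.97 on array 3. With the surface removed it read -0.23, -0.44 and 0.72, so that 1 array carried its mean of 0.40 ± 0.49 before removal and the mean with it was 0.014 ± 0.62. Car9, a cell-surface carbonic anhydrase and a common hypoxia marker, was 0.035 and -0.17 ± 0.12 (limma adjusted p = 0.0782 with the surface removed). Ero1l, now Ero1a, an oxidase of protein folding, was -0.053 and -0.17.

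At the entry to glycolysis, Slc2a1, the widespread glucose transporter GLUT1, did not pass, at -0.063 ± 0.049 before and 0.11 ± 0.048 with the surface removed (limma adjusted p = 0.159). Hk2, the inducible hexokinase, read 0.52, 0.45 and -0.0073 on the 3 arrays before removal, with a mean of 0.32 ± 0.29 (limma adjusted p = 0.0119). After removal its mean was 0.015 ± 0.20 (limma adjusted p = 0.898). Hk1, the housekeeping hexokinase, went the other way between the fits, from -0.077 ± 0.17 to 0.19 ± 0.10 (limma adjusted p = 0.0413). Its brightest probe is placed by the array files on chromosome 5 and the gene lies on chromosome 10, so a near-identical copy could share its signal.

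In the upper steps, Tpi1, which interconverts the triose phosphates, read 0.21, 0.18 and 0.29 on the 3 arrays, and 0.32, 0.36 and 0.20 with the surface removed. All values lay above 0, with means of 0.23 ± 0.058 (limma adjusted p = 0.0219) and 0.29 ± 0.083 (limma adjusted p = 0.00635). A second Tpi1 probe gave 0.13 and 0.33 ± 0.070. Pfkl, the liver form of phosphofructokinase, read 0.24, 0.094 and 0.28, and 0.26, 0.22 and 0.18 with the surface removed. Its means were 0.20 ± 0.10 (limma adjusted p = 0.0404) and 0.22 ± 0.043 (limma adjusted p = 0.0182). From the processed signals of Agilent it was 0.19, which did not pass (limma adjusted p = 0.0638). Leaving out any 1 of the arrays ended the call of Tpi1 and that of Pfkl in at least 1 of the fits.

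The platelet form, Pfkp, was called higher only before removal, at 0.27 ± 0.16 against -0.012 ± 0.11, and the muscle form, Pfkm, passed in neither fit, at -0.069 and -0.072. Aldoa, the main aldolase, was called lower before removal, at -0.23 ± 0.056 (limma adjusted p = 0.0218), and stood at 0.14 ± 0.011 with it removed (limma adjusted p = 0.0798). Agilent's processed signals put Aldoa at 0.23 (limma adjusted p = 0.0452). Block medians removed in place of the surface left it at -0.029 (limma adjusted p = 0.699). Its direction thus differed between these treatments of the data, which do not differ in position alone, and the cause was not tested. Aldoc, the brain aldolase, ran from -0.72 on array 1 to 0.068 on array 3 before removal, and its mean was -0.033 ± 0.36 with the surface removed.

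Of the 5 lower-glycolysis genes tested, 2 were called higher before removal (all genes, 23.9%) and 2 others lower with it (all genes, 15.3%), each in that fit alone. Gapdh, the enzyme often used as a reference gene, was -0.10 ± 0.16 before and -0.29 ± 0.038 with the surface removed (limma adjusted p = 0.00475). Only this brightest Gapdh probe was called lower with the surface removed. A dimmer one in row 288, placed on chromosome 6, was called higher over the kept probes, at 0.18 (limma adjusted p = 0.0416). From the processed signals of Agilent the brightest probe stood at -0.032 (limma adjusted p = 0.723). Eno1, the main enolase, was -0.0074 ± 0.25 and -0.36 ± 0.15 (limma adjusted p = 0.00429). Pgk1, the first step that yields ATP, went from 0.25 ± 0.18 (limma adjusted p = 0.0216) to -0.23 ± 0.22 (limma adjusted p = 0.0583). Its dimmer probe, in row 513 and placed on chromosome X, went the other way before removal. Over the kept probes it was called lower there, at -0.39 ± 0.20 (limma adjusted p = 0.0013), and stood at -0.045 with the surface removed. The brightest probes of these 3 genes are placed by the array files on chromosomes X, 2 and 3, away from the genes on 6, 4 and X, so near-identical copies could share their signal. Eno2, the neuronal enolase, was 0.32 ± 0.17 before removal (limma adjusted p = 0.00534) and 0.091 with it. Pgam1, a mutase, was 0.19 ± 0.15 and 0.043. The probe named Pkm, taken up because it carries the current symbol of Pkm2, read -0.018 ± 0.085 before and 0.26 ± 0.058 with the surface removed (limma adjusted p = 0.00889).

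The lactate genes did not pass in both fits. Ldha, which makes lactate and is a textbook HIF target, read -0.31, -0.34 and -0.67 on the 3 arrays before removal, a mean of -0.44 ± 0.20 (limma adjusted p = 0.000688). With the surface removed the arrays straddled 0, at 0.044, -0.16 and -0.24, and the mean was -0.12 ± 0.15 (limma adjusted p = 0.211). Without array 1, Ldha passed in both fits as lower, at -0.50 (limma adjusted p = 3.95e-05) and -0.20 (limma adjusted p = 0.0456). Ldha's other probes gave -0.066 and 0.16 before, and 0.17 and 0.13 with the surface removed. Ldhb, the form that favours pyruvate, was -0.033 and 0.11. Slc16a3, the lactate exporter MCT4, was -0.16 ± 0.24 and 0.15 ± 0.22.

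The switch genes are Pfkfb4, Pfkfb3 and Pdk1. Pfkfb4 makes and breaks fructose 2,6-bisphosphate, the allosteric activator of phosphofructokinase. It read -0.75, -0.60 and -0.36 on the 3 arrays, and -0.69, -0.44 and -0.41 with the surface removed, below 0 throughout. It fell, with means of -0.57 ± 0.19 (limma adjusted p = 8.09e-05) and -0.51 ± 0.16 (limma adjusted p = 0.000696), to 1.49-fold and 1.43-fold lower levels. Pfkfb3, the isozyme most tied to high glycolytic flux, was called lower only before removal, at -0.23 ± 0.10 (limma adjusted p = 0.025), and stood at -0.016 ± 0.12 with it removed. Pdk1, the kinase that shuts pyruvate out of mitochondria, was 0.060 ± 0.14 before and 0.30 ± 0.15 with the surface removed (limma adjusted p = 0.0116).

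Probes that read nearly the same stretch of a transcript from different places on the array show how far such readings can lie apart. The surface also holds an intensity term and some of these probes differ in a few bases, so the part of position alone was not tested. Glucose-6-phosphate isomerase, Gpi1, had 3 probes on the minus strand of chromosome 7 of mm9, starting at 34987173, 34987174 and 34987178, which overlap by 55 bases or more and differ at 1 to 3 bases there. Their first 25 bases are given. Capitals mark the 2 bases that differ within the 55 bases shared by all 3 probes, and a difference outside that stretch is not marked.
Gpi1, row 195: atgttgttCtgacctTtatttcaca
Gpi1, row 64: tgtcatgttgttCtgacctGtattt
Gpi1, row 48: tgttgttTtgacctGtatttcacac
Before surface removal these 3 read 0.089 ± 0.091, 0.40 ± 0.13 and 0.46 ± 0.11, and the last 2 were called higher. With the surface removed they read 0.0025 ± 0.045, -0.011 ± 0.057 and 0.010 ± 0.037, which lie within each other's spread.

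The same was seen for 2 Slc16a3 probes that share 53 bases with 0 mismatches, on the plus strand of chromosome 11 of mm9 from 120820023 and 120820030. Their first 23 bases are shown because the second starts inside the first.
Slc16a3, row 489: ctgggcagtggtctgttcaccct
Slc16a3, row 24: gtggtctgttcaccctgagtccc
The one in row 489 read -0.16 ± 0.24 and the one in row 24 read 0.40 ± 0.27. With the surface removed they read 0.15 ± 0.22 and 0.0046 ± 0.21. Over 7 Gapdh probes in rows 10 to 430 the ratios ran from -0.41 to 0.53 before and from -0.29 to 0.18 with the surface removed. Over the 14 listed genes with more than 1 kept probe, the median range between probes of 1 gene went from 0.37 to 0.23, and it was narrower in 9 of 14.

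**Figure D3:**
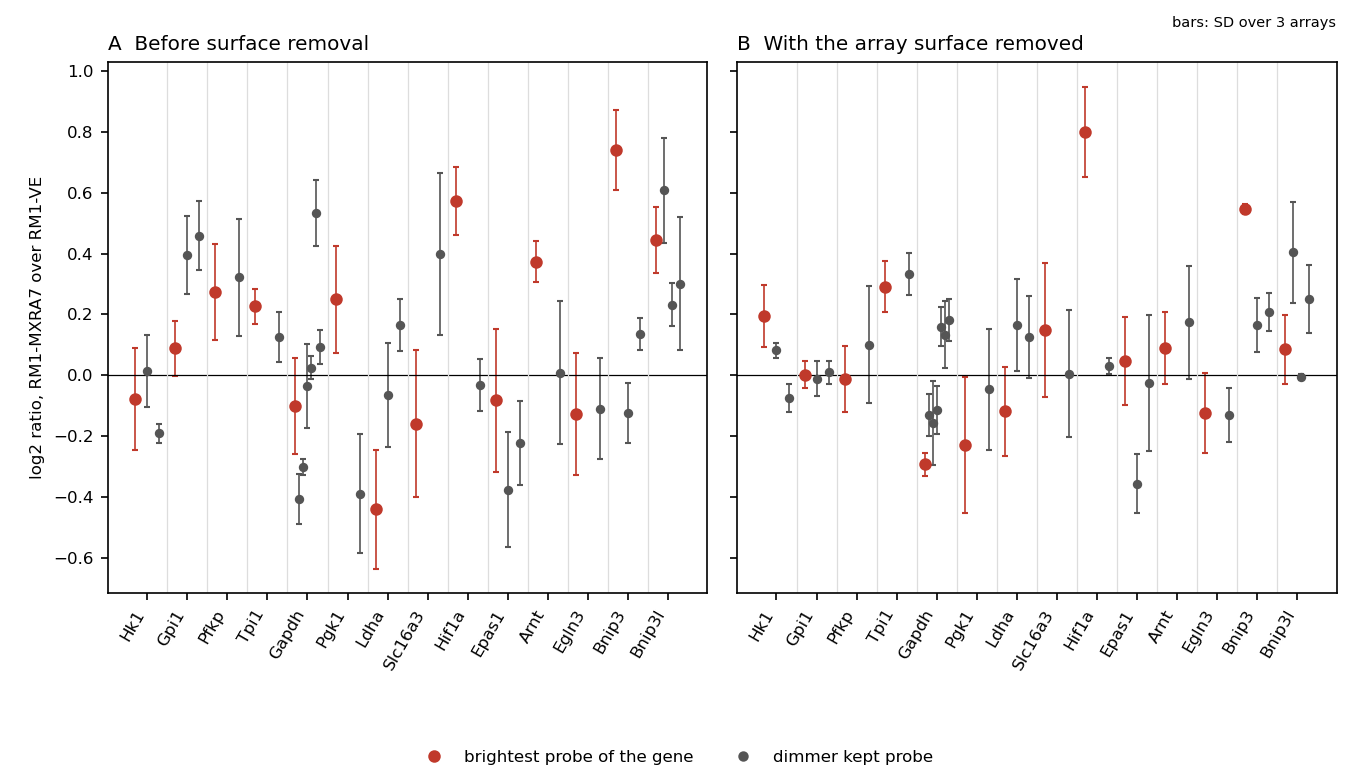
Log2 ratio of RM1-MXRA7 over RM1-VE for every kept probe of the 14 listed genes with more than 1 (red, brightest; grey, dimmer), as mean and SD over 3 arrays, before (A) and with the surface removed (B). The 3 overlapping Gpi1 probes move from 0.089, 0.40 and 0.46 to within 0.011 of 0, while the Hif1a and Bnip3 probes remain apart.

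The Pfkm probe was spotted 10 times on each array, in rows 10 to 507, with the same sequence each time. Within an array the SD of its 10 log ratios was 0.283, 0.296 and 0.239 on arrays 1, 2 and 3 before surface removal, and 0.0739, 0.0610 and 0.0430 with it. On array 2 the 10 spots ran from -0.36 to 0.40 before and from -0.17 to 0.022 with the surface removed. Before removal the copies in the lowest rows read above 0 and those in the highest rows below 0 on all 3 arrays.

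**Figure D4:**
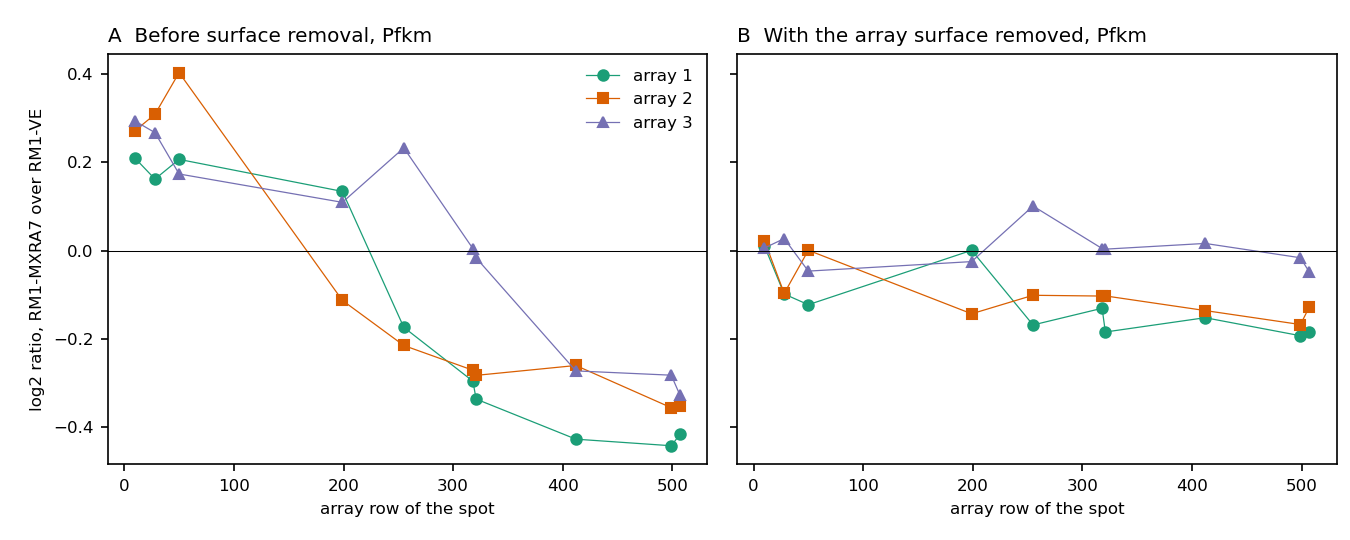
Log2 ratio of RM1-MXRA7 over RM1-VE at each of the 10 spots of the Pfkm probe against the array row of the spot, for the 3 arrays, before (A) and with the surface removed (B). In A the spots of array 2 run from -0.36 to 0.40 with row, and in B from -0.17 to 0.022.

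The promoters of these genes were searched for the HIF core, ACGTG or GCGTG, on both strands; ACGTG also lies within the E-box CACGTG, which holds it on both strands. RefSeq promoters of build GRCm38.p6, 250 bases before to 50 after the start, matched 35 of the 40 genes, with 52 promoters. Slc2a3, Epas1, Bnip3l, Bhlhe40 and Ndrg1 were not matched. At least 1 core was found for 31 of 35 genes (88.6%), against 65.1% of the tested genes with a promoter and 46.7% of all genes in the table. By promoter the shares were 76.9%, 59.5% and 43.8%. The listed promoters held a median of 20.5 CpG pairs, against 19 in those of tested genes and 7 in all. The core was found for 6 of 7 matched risers, Tpi1 being the one without, and for 25 of the other 28 matched genes. Those 28 include Adm, Mxi1 and Pkm2, which hold a core but were not tested under these names. With a core in 31 of 35 genes, 7 risers cannot show whether the core goes with a rise. A match describes letters only.

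The promoters of 3 risers and of Ldha, whose ratio depended on the fit, are given on their own strand with every core in capitals. Counts are per strand, so each CACGTG adds 2 to ACGTG. On this count Ldha holds 5 ACGTG and 2 GCGTG, the most of the 4, and Bnip3 holds 2 and 3, Ankrd37 2 and 2, and Hif1a 3 and 0. A second Ldha promoter, not shown, holds 0 and 2.
Bnip3, chr7:138909457-138909756, minus strand: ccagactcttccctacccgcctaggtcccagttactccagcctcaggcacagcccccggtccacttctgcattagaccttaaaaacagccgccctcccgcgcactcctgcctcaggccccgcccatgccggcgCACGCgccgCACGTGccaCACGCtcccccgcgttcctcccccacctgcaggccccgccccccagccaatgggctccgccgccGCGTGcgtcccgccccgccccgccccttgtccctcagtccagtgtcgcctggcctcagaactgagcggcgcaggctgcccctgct
Ankrd37, chr8:45999801-46000100, minus strand: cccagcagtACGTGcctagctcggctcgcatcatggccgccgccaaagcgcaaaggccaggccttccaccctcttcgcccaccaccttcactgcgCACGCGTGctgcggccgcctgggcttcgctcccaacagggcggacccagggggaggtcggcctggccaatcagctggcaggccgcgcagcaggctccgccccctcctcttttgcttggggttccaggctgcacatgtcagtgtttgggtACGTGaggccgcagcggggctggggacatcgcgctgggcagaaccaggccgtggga
Hif1a, chr12:73907617-73907916, plus strand: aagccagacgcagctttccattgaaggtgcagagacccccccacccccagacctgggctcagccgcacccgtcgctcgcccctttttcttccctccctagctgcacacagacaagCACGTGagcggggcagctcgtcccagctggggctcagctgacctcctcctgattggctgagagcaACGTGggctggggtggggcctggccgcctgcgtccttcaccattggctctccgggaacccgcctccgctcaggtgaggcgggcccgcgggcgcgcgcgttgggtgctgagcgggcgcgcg
Ldha, chr7:46845554-46845853, plus strand: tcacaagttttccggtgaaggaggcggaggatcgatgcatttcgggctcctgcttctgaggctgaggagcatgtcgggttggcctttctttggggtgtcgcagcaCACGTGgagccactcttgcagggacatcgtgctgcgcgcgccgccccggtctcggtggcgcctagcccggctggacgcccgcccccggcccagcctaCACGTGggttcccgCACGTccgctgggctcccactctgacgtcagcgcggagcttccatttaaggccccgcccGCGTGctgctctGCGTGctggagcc

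Other genes of the same pathways moved in both directions. Of 53 further genes of glycolysis, pyruvate use and the pentose phosphate path, 37 were tested, 5 rose in both fits (13.5%, all genes 10.1%) and 6 fell (16.2%, all genes 10.7%), with a median ratio of 0.042 with the surface removed. The risers were Slc2a6, a glucose transporter family member (0.59 before and 0.39 with the surface removed), Pgls of the pentose phosphate path (0.24 and 0.23), Mpc2 of the mitochondrial pyruvate carrier (0.27 and 0.22), and the phosphoglucomutases Pgm1 (0.35 and 0.20) and Pgm2 (0.39 and 0.25), named by their RefSeq symbols. Rpia, which isomerises ribose 5-phosphate, fell to -0.58 and -0.48 (limma adjusted p = 0.000979 with the surface removed). Mpc1, the other carrier subunit, fell to -0.44 and -0.29 by its brightest probe, though its dimmer probe was not below 0 on all arrays.

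Of 56 further hypoxia genes, 47 were tested, 7 rose in both fits (14.9%, all genes 10.1%) and 8 fell (17%, all genes 10.7%), with a median ratio of 0.094 with the surface removed. P4ha1 and Plod2, hydroxylases of collagen proline and lysine, rose, by 0.50 and 0.28 before removal and by 0.50 and 0.49 with it. Selenbp1, a selenium-binding protein, fell to -0.70 and -0.59, and Anxa2, an annexin, to -0.53 and -0.46. Ndufa4l2, a mitochondrial HIF target, fell to -0.55 and -0.45, and Nos2, the inducible nitric oxide synthase, to -0.24 and -0.46. Vegfa, the angiogenic factor and best-known HIF target, is named outside the rule, after its values were seen, and was called before removal at 0.24 ± 0.20 (limma adjusted p = 0.0278) but not with it, at 0.024 ± 0.11 (limma adjusted p = 0.80).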

How the data were processed

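Both RM1 derivatives were hybridised together on 3 Agilent 2-colour arrays. Per the file headers, the authors deposited scanner output with mean, background and processed intensity per channel. The submitters' processing notes name Agilent Feature Extraction 10.7.1.1. In the series matrix the authors deposited 1 linear ratio for each probe, which equalled Cy3 over Cy5 processed signal within 1% for 99.7% to 99.8% of values, with medians of 0.972 to 1.03. Direction was taken from the labelled dyes.

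Background was corrected by normexp with offset 50, then loess was run array by array, controls having weight 0, in limma 3.58.1 under R 4.3.3. Spots of 1 probe were averaged. Probes that the scanner software marked as well above background on every array in Cy3, or on every array in Cy5, were kept (21803), and the brightest kept probe stood for its gene. limma's lmFit and eBayes tested each ratio against 0 (2 residual and 13.8 prior degrees of freedom) and adjusted by Benjamini-Hochberg. The surface was a polynomial of degree 4 in row and column, alone and times log2 intensity, fitted per array. The limma fit and the surface removal were tested on simulated log ratios, with the same smooth surface on every array. Background correction, loess, spot averaging and the filter were not simulated.

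The genes, gene lists and the surface step were chosen with earlier results of these data known. Each listed gene is accounted for. Of each further list, up to 6 genes called in both fits were named by smallest adjusted p with the surface removed, and every gene of a direction with 5 calls or fewer. Alternatives were the offset, no background correction, processed signals, the series matrix, median centring, medians of blocks of 19 rows by 17 columns, the filter, probe averaging, limma options, a single-channel fit with or without a replicate block for the array, and leaving out each array. Coordinates of probes come from the array annotation (mm9), and no genome of that build was used here. Replicates are few, which limits the precision. Some markers of the cell type are not reported here.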

Additional observations from a re-analysis of the deposited data

How the results depend on the processing

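All 36 genes kept their side of the threshold without background correction and 35 with a normexp offset of 16. Over all genes, 7968 were called; processed signals gave 4100, the series matrix 4083, surface removal 5275, and leaving out 1 array 5110 to 7398. Of the listed genes 16 were called higher and 5 lower; processed signals and the series matrix each gave 9 and 1, median centring 9 and 18, block medians 10 higher, and surface removal 3 lower. Leaving out 1 array gave 6 to 12 higher and 2 to 6 lower. Median centring, which leaves the intensity trend in place, turned the median of the listed genes from 0.074 to -0.12. Treating channels singly, with the array as replicate block, gave the same 7968, 16 and 5 calls as the ratios, since each array pairs both lines; without the replicate block the counts were 2323, 2 and 2.

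The alternatives for the calls in both fits were chosen after seeing the data. Higher in both fits were 9 genes, and 3 to 6 without 1 array. Lower in both was Pfkfb4 (1 gene), and 1 to 2 genes without 1 array, Ldha joining without array 1; block medians in place of the surface gave 2, Ldha and Pfkfb4. The next counts take 1 fit at a time, setting the call before surface removal against that under each alternative. These are not independent, since the series matrix holds the processed ratios and the single-channel fit with the replicate block repeats the ratio fit. On this count Hif1a (0.27 to 0.84) and Pfkfb4 (-0.67 to -0.48) kept their calls in all 16 alternatives. Their limma adjusted p-values ran up to 0.0228 and 0.0183. Bnip3 and Bhlhe40 kept theirs in 15 of 16, Ankrd37 in 14, Ndrg1 and Kdm3a in 12, Tpi1 in 11, Pfkl in 8, and Egln1 in 13 of 15. Egln1 has 1 alternative fewer because the filter asking for both channels left it out. The smallest values were 0.092 for Ndrg1, 0.14 for Kdm3a and 0.10 for Pfkl. By the rule of both fits, Tpi1 and Pfkl lost their calls whichever array was left out.

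A turn was counted where the gene was called before surface removal or in the setting set against it. With the surface removed, Hk1 (0.19), Aldoa (0.14), Pfkp (-0.012) and Pgk1 (-0.23) turned. With processed signals and equally with the series matrix, Hk2 (-0.018), Pfkp (-0.054) and Aldoa (0.23) turned. Median centring turned Gpi1 (-0.43), Tpi1 (-0.28), Pgk1 (-0.26) and Pgam1 (-0.34), and block medians turned Pfkp (-0.035), Pgk1 (-0.052) and Car9 (-0.24). Averaging probes turned Pgk1 (-0.070). Genes called in neither of the fits so compared, such as Slc16a3, Ldhb and Vhl, also changed sign under some settings. The causes were not tested.

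All 3 arrays share 1 dye orientation and the origin of the repeats is unstated. Probes near background, such as Egln1 and the 3 genes below the filter, and the edge row of Hif1a limit what these arrays resolve.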

Other observations

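Some related genes of the further lists are given here as values, chosen after they were seen. The hypoxia list they come from had 7 genes higher and 8 lower in both fits, of 47, where 10.1% and 10.7% of all genes were. The histone demethylases Kdm4b (0.45 ± 0.13 before and 0.27 ± 0.064 with the surface removed) and Kdm4c (0.43 ± 0.11 and 0.24 ± 0.032) were higher in both limma fits. Kdm5b, an H3K4 demethylase, was called before removal at 0.28 ± 0.11 and stood at -0.058 ± 0.046 with it. P4ha2, a collagen hydroxylase, was higher in both fits, at 0.23 and 0.28, and Plod1 passed in neither, at -0.026 and 0.13. Of the kinase and phosphatase genes for fructose 2,6-bisphosphate, Pfkfb1 was lower in both fits, at -0.31 ± 0.054 and -0.20 ± 0.13. Pfkfb2 stood at 0.096 ± 0.27 and 0.17 ± 0.18 and passed in neither, and differences between these genes were not tested.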
